A study of Mus musculus with 10 samples.

Results

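The genes described here are 37 listed genes of the endoplasmic reticulum (ER), comprising its chaperones, the sensors of the unfolded protein response, and the machinery that brings proteins in and takes misfolded ones out. They were chosen by symbol from the arrays, with 1 probe set per gene, the one with the highest mean signal. Of the 37 genes, 36 had a probe set of their own, among 18193 genes on the array. Sec61g, a subunit of the translocation channel, shares its probe set with other symbols and was not measured. All 36 stood above the median of the array in each of the 10 mice, so none was lost to the filter on dim probe sets.

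RNA came from spleen pieces of female BALB/c mice, 1 Affymetrix array per mouse, all injected intraperitoneally with 100 µg of proteoglycan (PG) protein in 2 mg of the adjuvant DDA on days 0, 21 and 42. Human cartilage PG given in this way induces arthritis in susceptible mice. The groups were old arthritic mice (n = 2, both 9 months), old non-arthritic mice (n = 2, 7 and 5 months), young arthritic mice (n = 2, 5 and 4 months) and young non-arthritic mice (n = 4, 3, 3, 2 and 1 months). The non-arthritic mice were immunized too, and no naive mouse was analysed here. Within each age group the arthritic mice were the older ones, so arthritis and age cannot be told apart there. Arthritis was therefore also compared at equal age, in a fit with age in months as a term. That fit assumes a straight line in age. The only age shared by arthritic and non-arthritic mice is 5 months, with 1 mouse of each. The values at equal age therefore rest on that line and cannot fully part arthritis from age. The labels do not say whether age was counted at the first injection or at the end. Values are log2 signals, and a difference of 1 is a doubling.

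Proteins bound for the cell surface or for secretion enter the ER through the Sec61 channel, lose their signal peptide to signal peptidase, and fold with the help of chaperones and disulfide isomerases. Misfolded proteins are trimmed, taken back out and degraded. When unfolded proteins accumulate, the sensors Ire1 (Ern1), Perk (Eif2ak3) and Atf6 switch on the unfolded protein response, which raises the chaperones. Plasma cells, the antibody-secreting cells of the spleen, have an expanded ER and express many of these genes strongly. In RNA from a whole spleen piece, more such cells and more RNA per cell cannot be told apart.

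Many of these genes carry the ER stress response element (ERSE) in their promoter, to which Atf6 and Xbp1 bind, and the sequences show which of them do. RefSeq promoters (GRCm38.p6, 250 bases before to 50 bases after the start site) were at hand for 31 of the 37 genes. ERSE was searched as CCAAT and CCACG with 9 bases between them, on both strands. It occurred in the promoters of 8 of the 31 genes (25.8%), which were Hspa5, Hsp90b1, Calr, Canx, Pdia6, Dnajc3, Creld2 and Syvn1. Of all 32851 promoters 39 held it (0.119%). The members are counted by gene and the background by promoter. ERSE-II, searched as ATTGG and CCACG with 1 base between them, occurred in Herpud1 and Dnajb11 (6.45%, against 0.0365% of all promoters). The unfolded protein response element (UPRE), searched as TGACGTGG on both strands, occurred in Txndc5 and Txndc11 (6.45%, against 0.676%). A letter match is a description and not a bound site. The promoters below, 5′ to 3′ in the direction of the gene, show 1 ERSE in Hspa5 (chr2:34771840-34772139 on the plus strand), 2 in Hsp90b1 (chr10:86705395-86705694 on the minus strand), the ERSE-II of Herpud1 (chr8:94386179-94386478 on the plus strand) and the UPRE of Txndc11 (chr16:11134483-11134782 on the minus strand), with the matches in capitals.
Hspa5, ERSE: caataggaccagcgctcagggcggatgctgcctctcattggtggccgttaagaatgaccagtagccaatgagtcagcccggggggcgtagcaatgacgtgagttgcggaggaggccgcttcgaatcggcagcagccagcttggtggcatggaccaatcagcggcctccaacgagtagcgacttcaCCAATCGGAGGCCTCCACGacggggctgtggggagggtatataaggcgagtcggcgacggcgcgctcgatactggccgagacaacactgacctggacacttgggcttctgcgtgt
Hsp90b1, ERSE: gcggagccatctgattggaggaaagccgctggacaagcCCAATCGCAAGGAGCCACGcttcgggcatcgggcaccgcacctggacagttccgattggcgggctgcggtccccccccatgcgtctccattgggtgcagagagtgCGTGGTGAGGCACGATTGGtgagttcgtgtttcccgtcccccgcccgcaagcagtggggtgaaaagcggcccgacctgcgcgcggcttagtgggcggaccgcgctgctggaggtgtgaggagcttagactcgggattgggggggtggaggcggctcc
Herpud1, ERSE-II: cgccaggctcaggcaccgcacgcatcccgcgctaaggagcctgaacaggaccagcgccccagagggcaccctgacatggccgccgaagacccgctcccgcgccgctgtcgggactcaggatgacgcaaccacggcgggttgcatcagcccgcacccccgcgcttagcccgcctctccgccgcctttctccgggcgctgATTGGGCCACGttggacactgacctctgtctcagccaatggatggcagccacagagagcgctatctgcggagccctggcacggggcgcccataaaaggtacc
Txndc11, UPRE: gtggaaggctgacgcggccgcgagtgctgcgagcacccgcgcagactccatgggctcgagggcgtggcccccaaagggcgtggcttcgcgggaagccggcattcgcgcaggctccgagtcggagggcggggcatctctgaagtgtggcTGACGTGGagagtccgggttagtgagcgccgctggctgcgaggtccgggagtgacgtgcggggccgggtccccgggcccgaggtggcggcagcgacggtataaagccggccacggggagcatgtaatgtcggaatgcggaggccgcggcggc

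Among the mice, old arthritic replicate 2 stood apart, with the highest value of 26 of 36 members (72.2%, against 21.4% of all probe sets). Old non-arthritic replicate 1 had the lowest value of 21 (58.3%, against 12.9%). No member passed an adjusted p of 0.05 in any of the 6 comparisons (limma, Benjamini-Hochberg over 23805 probe sets). The comparison at equal age called 2.26% of all probe sets, and the other comparisons called 0% for age in non-arthritic mice, 0.0714% for arthritis in old mice, 0.311% for arthritis in young mice, 0% for the difference of those effects and 0.0042% for age in months. Without a call, the members leaned to one side. At equal age 35 of 36 were higher in arthritic mice, with a median difference of 0.18 on the log2 scale. A lean of this kind was general, since 68.5% of all probe sets (median 0.09) and 83.5% of the 9008 probe sets within the brightness range of the members (median 0.13) were higher too. It also depends on the scaling, because 21 of 36 were higher (median 0.02) after a further quantile normalization and 25 of 36 (median 0.09) after centring each array on its kept probe sets. At an unadjusted p under 0.05, 9 members (25%) were higher and 0 lower, against 19.2% and 3.65% of all probe sets and 24.6% higher in the brightness range. The share of members is close to that of equally bright probe sets. Without old non-arthritic replicate 1, 26 of 36 members were higher (median 0.11), against 68.4% of all probe sets (median 0.09). In that setting 1 member was higher at an unadjusted p under 0.05, against 11.4% of all probe sets, and 0 of all probe sets were called.

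**Figure D1:**
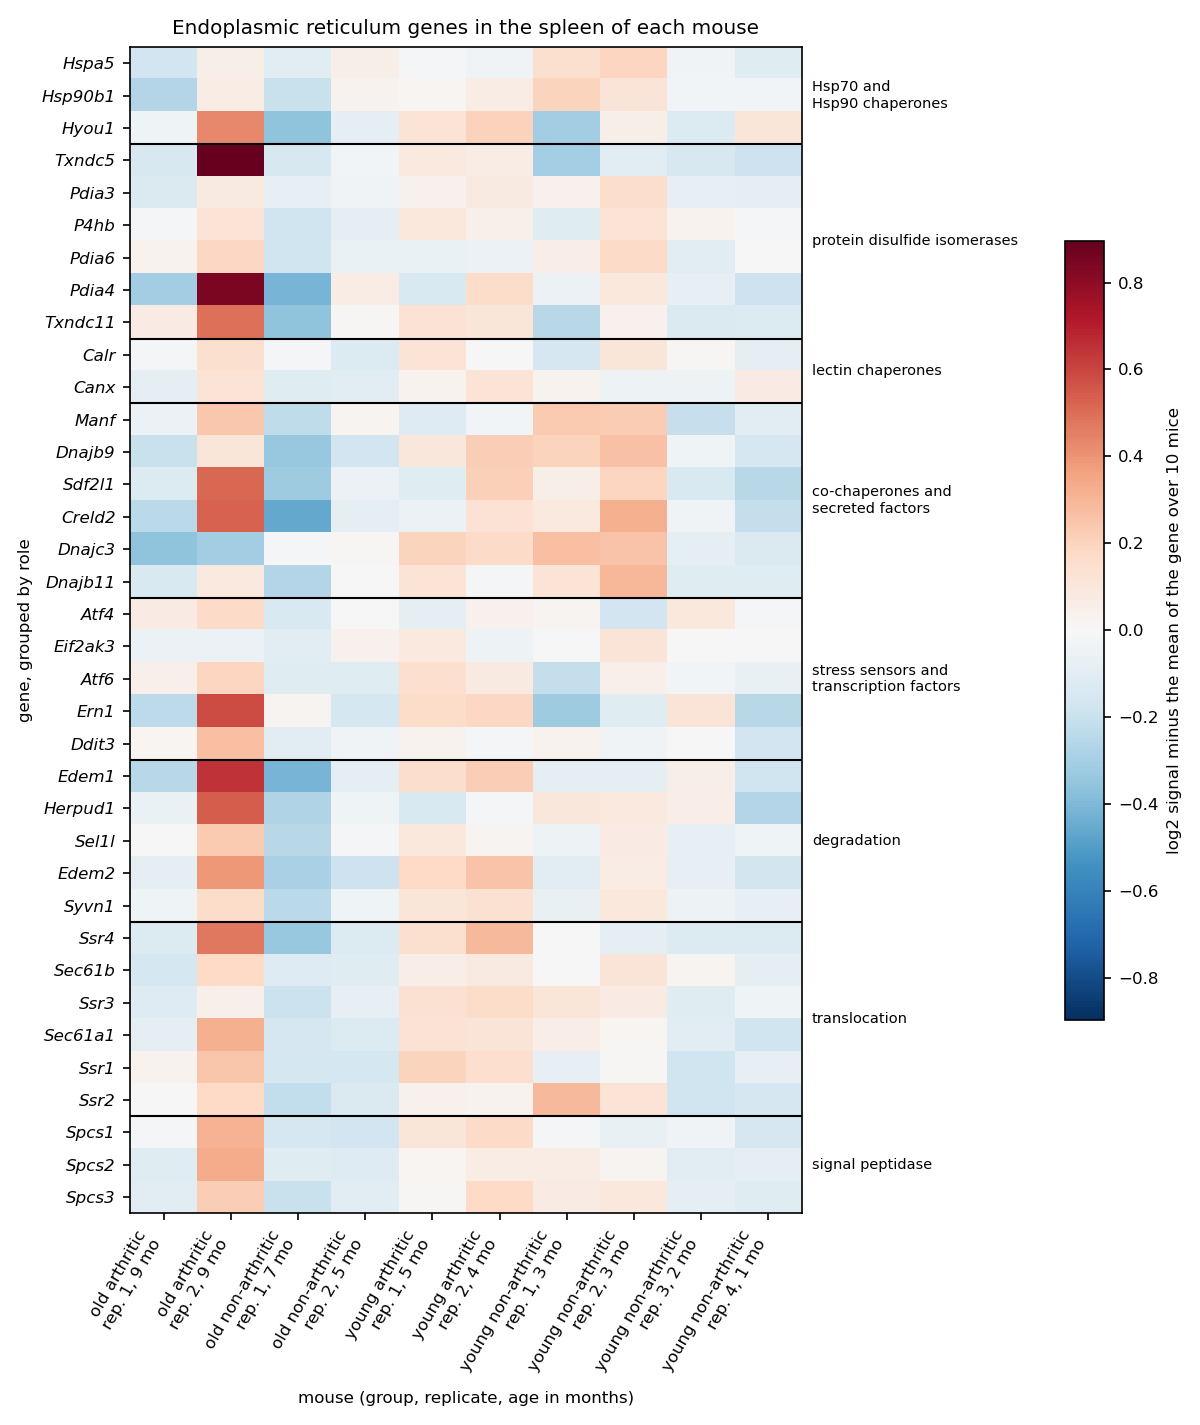
Log2 signal of the 36 genes in each of the 10 mice, shown as colour for the difference from the mean of the gene over the 10 mice, with genes grouped by role and mice by group. Old arthritic replicate 2 is red in most rows, with the highest value of 26 of 36 genes, and old non-arthritic replicate 1 is blue in most rows, with the lowest value of 21.

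The translocation genes held the smallest p at equal age. Ssr1, a subunit of the TRAP complex beside the Sec61 channel, had 12.11 and 12.33 in the old arthritic mice, 11.92 and 11.92 in the old non-arthritic mice, 12.28 and 12.23 in the young arthritic mice, and 12.01, 12.09, 11.90 and 12.01 in the young non-arthritic mice. Every arthritic mouse lay above every non-arthritic mouse, which held for 2 of 36 members (Ssr1 and Txndc11) and for 10.4% of all probe sets (12.9% in the brightness range). The difference of Ssr1 at equal age was 0.29 (standard error 0.08, 95% interval 0.11 to 0.48), a fold of 1.23, and it missed the threshold with an adjusted p of 0.0821 in the limma fit. It was 0.30 (standard error 0.10) in old and 0.25 (standard error 0.09) in young mice. Of 3 other probe sets of Ssr1, all of them dimmer, 2 were higher in arthritic mice and 1 was lower by a mean of 0.17. Ssr4, also of TRAP, differed by 0.40 (standard error 0.13) at equal age, and ranged from 12.48 to 13.07 in arthritic and from 12.26 to 12.60 in non-arthritic mice, so its groups overlapped. Its 2 other probe sets had mean differences of 0.078 and -0.002, and the mean of its probe sets differed by 0.11 at equal age. All 6 translocation genes measured were higher at equal age, by 0.12 to 0.40, and 3 of them had an unadjusted p under 0.05.

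The genes for degradation of misfolded proteins differed by similar amounts. Edem2, which helps to trim mannose from misfolded glycoproteins, had 10.67 and 11.14 in old arthritic mice, 10.46 and 10.57 in old non-arthritic mice, 10.93 and 11.01 in young arthritic mice, and 10.66, 10.82, 10.68 and 10.59 in young non-arthritic mice. Arthritic mice stood above non-arthritic mice within both age groups, with 2 young non-arthritic mice above the lower old arthritic mouse. The difference at equal age was 0.39 (standard error 0.12, adjusted p = 0.0968 by limma). Edem1, a relative, had the largest difference of all members at 0.41 with a standard error of 0.19 (adjusted p = 0.226 by limma). Syvn1, the Hrd1 ubiquitin ligase of the pathway, was higher by 0.22 (standard error 0.09), and Herpud1, an adaptor of that ligase, by 0.07 (95% interval -0.32 to 0.46). A second Herpud1 probe set, with a mean signal of 11.2 against 11.78, was higher in arthritic mice by a mean of 0.345, against 0.134 for the brightest. All 5 degradation genes were higher, and 2 had an unadjusted p under 0.05. Of the 3 signal peptidase subunits, Spcs1 differed by 0.26 (standard error 0.09, adjusted p = 0.133 by limma), Spcs3 by 0.19 and Spcs2 by 0.13. The mean of the 3 probe sets of Spcs1, of which 1 was below the filter, differed by 0.02. Averaging all probe sets of a gene, dim ones included, also left 0.15 for Ssr1, 0.19 for Edem2 and 0.14 for Txndc11.

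By the brightest probe set of each gene, the major chaperones differed less. Hspa5, the Hsp70 chaperone BiP and the usual readout of the unfolded protein response, had 13.12 and 13.34 in old arthritic mice, 13.19 and 13.34 in old non-arthritic mice, 13.28 and 13.26 in young arthritic mice, and 13.43, 13.48, 13.26 and 13.18 in young non-arthritic mice. The groups overlapped fully. It was the 1 member below 0 at equal age, at -0.04 (standard error 0.10, 95% interval -0.26 to 0.18). Its other 2 probe sets, at lower signals, were higher in arthritic mice by a mean of 0.13 and 0.21, and 1 of them ran against the brightest across the mice (r = -0.44), so the sign of BiP depends on the probe set. Hsp90b1, the Hsp90 chaperone Grp94, differed by 0.06 (95% interval -0.18 to 0.29) and Pdia3, the oxidoreductase ERp57, by 0.06 (95% interval -0.13 to 0.26). These intervals leave room for a difference of the size fitted for Canx in each of the 3 genes, and the difference between genes was not tested. Hyou1, the exchange factor of BiP, was the exception in the group at 0.39 (standard error 0.14, adjusted p = 0.142 by limma). The lectin chaperones calreticulin (Calr, 0.10) and calnexin (Canx, 0.15) lay between. The other probe sets of Calr were higher in arthritic mice by a mean of 0.159 and 0.207, against 0.106 for the brightest. Those of Canx were higher by 0.244 and 0.189, against 0.079. Hsp90b1 had 0.048 in its other probe set, against -0.045. The size of the difference in these chaperones therefore depends on the probe set.

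The stress sensors and factors gave 0.22 (standard error 0.08) for Atf6, 0.25 (standard error 0.18) for Ern1 and 0.02 (standard error 0.07) for Eif2ak3. Atf4, the factor made when eIF2α is phosphorylated, differed by 0.08 (95% interval -0.13 to 0.29), and its target Ddit3, which encodes the pro-apoptotic factor Chop, by 0.08 (95% interval -0.12 to 0.27). Ddit3 had 9.41 and 9.66 in old arthritic mice, 9.30 and 9.36 in old non-arthritic mice, 9.42 and 9.38 in young arthritic mice, and 9.42, 9.36, 9.39 and 9.22 in young non-arthritic mice. Old arthritic replicate 2 alone stood above the rest. A second Atf4 probe set of lower signal was higher in arthritic mice by a mean of 0.44, against 0.09 for the brightest. The 8 genes with ERSE had a median difference of 0.08 at equal age (-0.04 to 0.22). The 22 measured genes with a promoter but no exact ERSE match in it had 0.21 (0.02 to 0.41), a description with no test. Near matches to ERSE were not searched. Those 22 include Herpud1 and Dnajb11 with ERSE-II, and Txndc5 and Txndc11 with UPRE, so they are not free of stress elements. Among the ERSE genes the values depend on the probe set. Dnajc3 had a mean difference of -0.13 by its brightest probe set and 0.314 by another.

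**Figure D2:**
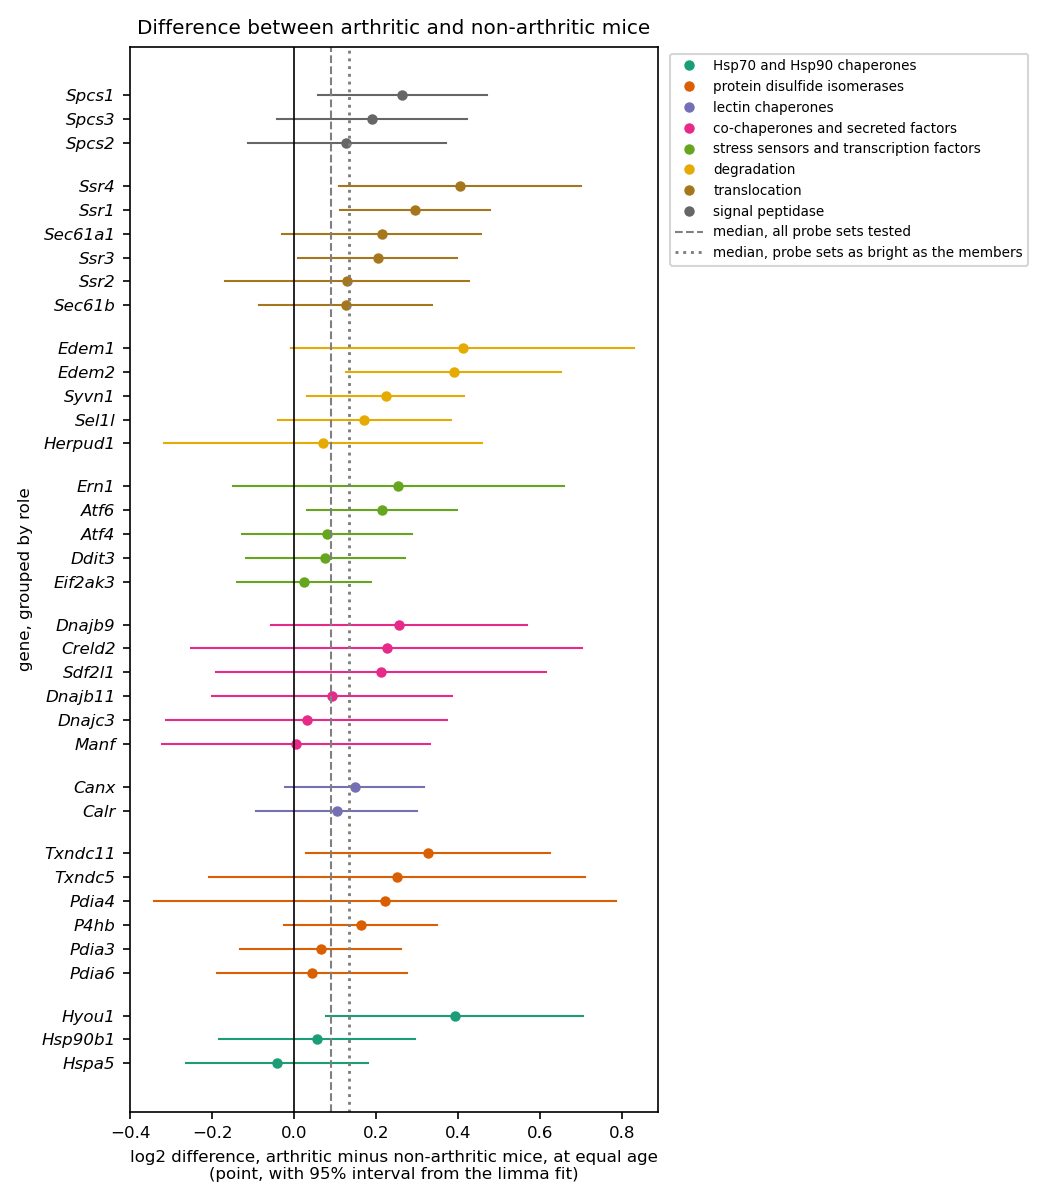
Log2 difference, arthritic minus non-arthritic at equal age, for the 36 genes (points) with 95% intervals from the limma fit (lines), coloured by role, with vertical lines at 0 and at the medians of all probe sets and of those as bright as the members. Of 36 points 35 lie right of 0, most intervals reach 0, and Hspa5 lies left of it.

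In old mice the picture rested on a single animal. The median difference of the members between arthritic and non-arthritic old mice was 0.23, with 32 of 36 higher (88.9%), against 0.05 over all probe sets (58.6% higher) and 0.08 in the brightness range (65.9% higher). After the further quantile normalization it was 0.12, with 29 of 36 higher. Without old non-arthritic replicate 1 it was 0.18, with 30 of 36 higher. Old arthritic replicate 2 stood 0.36 (median) above the mean of the old non-arthritic mice, with 34 of 36 members higher. For that mouse the brightness range had a median of 0.13, with 68.8% higher. Old arthritic replicate 1 stood 0.05 above the same mean, with 25 of 36 members higher. For it the brightness range also had a median of 0.05, with 61.4% higher. Without replicate 1 the fit called 6 members (Pdia4, Edem1, Edem2, Ssr4, Spcs1 and Txndc5), with the lone old arthritic mouse assumed to vary like the other groups, and it called 6.44% of all probe sets there. Without replicate 2 the median of the members fell to 0.05, with 25 of 36 higher, against 0.04 and 57.5% higher over all probe sets.

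The disulfide isomerases Pdia4 and Txndc5 varied most across the mice, with SDs of 0.35 and 0.34. Pdia4, also called ERp72, had 10.70 and 11.86 in the old arthritic mice, 10.60 and 11.08 in the old non-arthritic mice, 10.88 and 11.18 in the young arthritic mice, and 10.96, 11.11, 10.94 and 10.83 in the young non-arthritic mice. Txndc5, or ERp46, had 12.91 and 13.95, then 12.91 and 13.03, 13.14 and 13.12, and 12.75, 12.95, 12.91 and 12.87 in the same order of groups. In both genes 1 old arthritic mouse was the highest of all 10 and the other lay within the range of the non-arthritic mice. The next in spread were Edem1 (SD 0.29), Creld2, a stress-induced secreted factor (0.29), and Ern1 (0.27), and their highest value was in the same mouse. Both old arthritic mice were above both old non-arthritic mice in 17 members (47.2%), against 35.3% of all probe sets and 41.4% in the brightness range. At an unadjusted p under 0.05, 5 members were higher and 1 lower, against 13.6% and 5% of all probe sets. These counts were 0 and 0 without old non-arthritic replicate 1, where 8.02% and 3.79% of all probe sets passed, and 2 and 1 after quantile normalization, where 10.1% and 7.27% did. Ssr1 came first, followed by Txndc11 at 0.45 (standard error 0.16, adjusted p = 0.198 by limma), a membrane thioredoxin-like protein whose promoter is shown above.

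Dnajc3, a J-domain partner of BiP known as p58IPK, went the other way in old mice. It had 10.48 and 10.53 in old arthritic mice, 10.83 and 10.85 in old non-arthritic mice, 11.04 and 11.01 in young arthritic mice, and 11.11, 11.10, 10.76 and 10.71 in young non-arthritic mice. It was the 1 member whose old arthritic mice both lay below both old non-arthritic mice (16.2% of all probe sets did, and 13.1% in the brightness range), with a difference of -0.33 (standard error 0.15, adjusted p = 0.265 by limma). Another of its 5 probe sets, with a mean signal of 10.57 against 10.84, was higher by a mean of 0.46 in the same mice and had no relation to it across mice (r = -0.01), so the direction of Dnajc3 is uncertain.

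**Figure D3:**
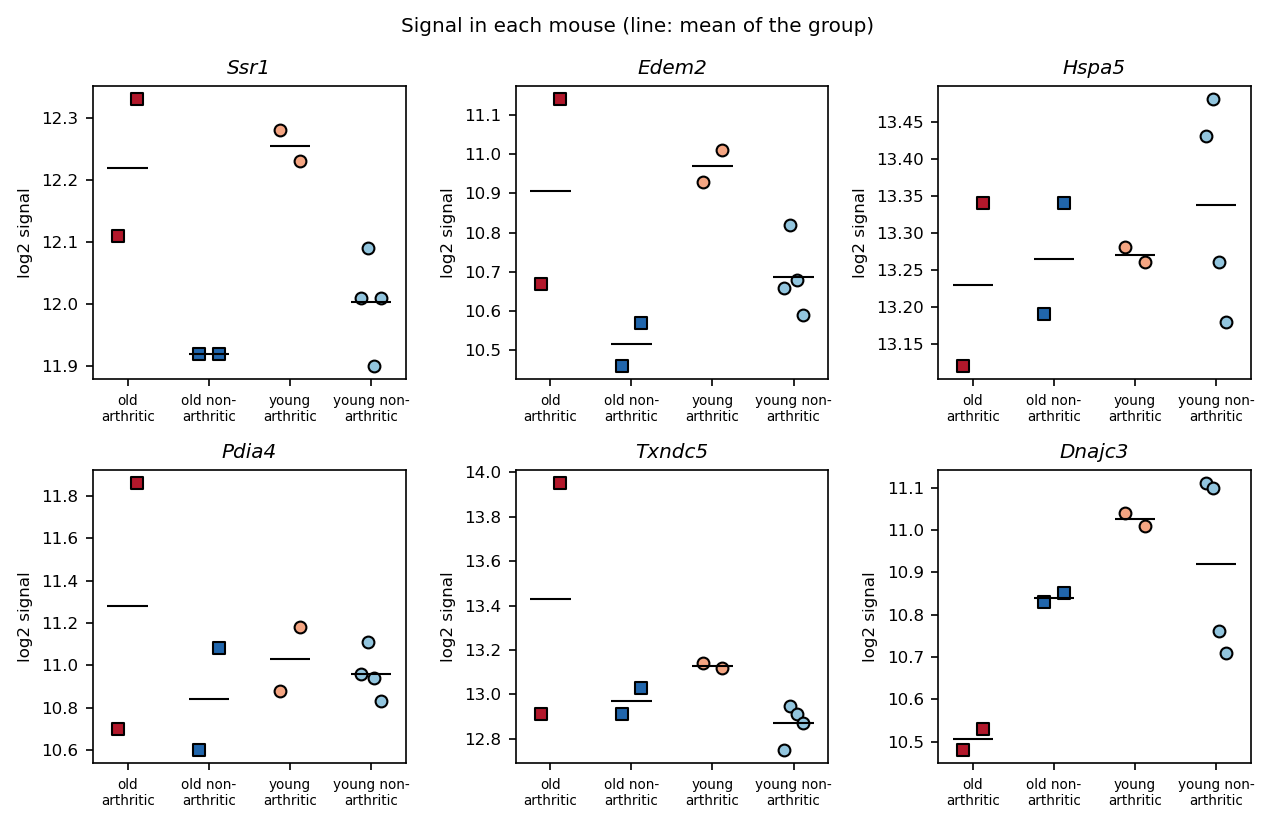
Log2 signal of 6 genes in each mouse by group, with a line at the mean of the group and a separate vertical scale in each panel. The 4 arthritic mice lie above the non-arthritic mice in Ssr1, 1 old arthritic mouse stands apart in Pdia4 and Txndc5, the groups overlap in Hspa5, and both old arthritic mice are lowest in Dnajc3.

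In young mice the members did not stand out. Their median difference between arthritic and non-arthritic mice was 0.08, with 28 of 36 higher, and that of all probe sets was 0.09. After the further quantile normalization the median was -0.06, with 12 of 36 higher, and after centring on the kept probe sets -0.01, with 16 of 36 higher. Leaving out each mouse gave medians of 0.05 (without young non-arthritic replicate 4) to 0.13 (without young non-arthritic replicate 2). At an unadjusted p under 0.05, 1 member (Ssr1) was higher and 0 lower, against 15.3% and 2.94% of all probe sets. Both young arthritic mice lay above all 4 young non-arthritic mice in 13 members (36.1%), against 25.6% of all probe sets and 33.3% in the brightness range. These were Ssr1, Ssr3, Ssr4, Sec61a1, Spcs1, Edem1, Edem2, Syvn1, Hyou1, Txndc5, Txndc11, Atf6 and Ern1. One mouse of 5 months is labelled old and non-arthritic and 1 of 5 months young and arthritic, and between those mice 28 of 36 members were higher in the arthritic one (median 0.13, against 0.14 for probe sets of the same brightness range), with no replicate.

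For no member did the test find a different effect of arthritis in old than in young mice. The median of old minus young was 0.11, with 31 of 36 members (86.1%) higher. Over all probe sets 42.5% were higher (median -0.03), and in the brightness range 38.3% (median -0.05). Without old arthritic replicate 2 the median of the members was -0.05, with 10 of 36 higher, against 42% of all probe sets (median -0.04). It was 0.28 without old arthritic replicate 1. Leaving out old non-arthritic replicate 1 gave 0.05 with 27 of 36 higher, against 40.3% of all probe sets, and leaving out replicate 2 of that group gave 0.17. Quantile normalization gave 0.16 with 33 of 36 higher, against 51.6% of all probe sets. At an unadjusted p under 0.05, 0 members were higher and 0 lower, against 0.748% and 2.35% of all probe sets. The members with the smallest p were Dnajc3 (-0.43, standard error 0.19), Pdia6 (0.32, standard error 0.14) and Herpud1 (0.48, standard error 0.26), all with an adjusted p of 1 by limma.

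Among non-arthritic mice 34 of 36 members were lower in old than in young mice. The other 2 (5.56%) were higher, against 42.7% of all probe sets and 32.4% in the brightness range. The members had a median difference of -0.12 on the log2 scale, against -0.02 over all probe sets and -0.04 in the brightness range. Neutrophil markers moved with it, with a median of -0.895 and 7 of 8 lower at an unadjusted p under 0.05, and erythroid markers ran the other way, with a median of 0.415 and 7 of 7 higher. Plasma cell markers had a median of 0.01. Their part in the lean of the members was not tested. Leaving out old non-arthritic replicate 1 gave a median of -0.04, with 28 of 36 lower, and leaving out replicate 2 of the same group gave -0.20. After quantile normalization the median was -0.08. At an unadjusted p under 0.05, 0 were higher and 1 lower, against 1.09% and 2.1%. That 1 was Dnajb9, the J protein ERdj4, which had 11.21 and 11.38 in old non-arthritic mice and 11.75, 11.81, 11.51 and 11.40 in young non-arthritic mice. The 2 old mice lay below all 4 young mice, narrowly against the 1-month mouse, and the difference was -0.32 (standard error 0.14, adjusted p = 0.997 by limma). Such separation was seen in 6 members (Canx, Dnajb9, Edem2, Sec61b, Spcs1 and Spcs2, 16.7%), against 7.77% of all probe sets and 9.79% in the brightness range. Pdia6 (-0.15) and Ssr3 (-0.15) followed by p. Per month of age, with arthritis in the fit, the median was -0.01 with 25 of 36 lower (18 of 36 after quantile normalization or centring on the kept probe sets). The 11 others (30.6%) were higher, against 39.9% of all probe sets and 29.8% in the brightness range (median -0.01). At an unadjusted p under 0.05, 0 members passed in either direction, against 3.13% higher and 6.85% lower of all probe sets. Without old arthritic replicate 2, 7 members were lower at that p and 0 higher, against 5.49% and 2.14% of all probe sets, with a median of -0.02. The smallest p belonged to Ssr3 at -0.03 per month (standard error 0.02, adjusted p = 0.508 by limma).

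The members moved together across the mice. Over the 630 pairs of members the median correlation across the 10 mice was 0.62, and 95.2% of pairs were above 0. Without old arthritic replicate 2 the median was 0.52. Spcs3 (r = 0.95), Edem2 (0.94), Creld2 (0.94) and Sec61a1 (0.93) were closest to the mean of the other members, and Dnajc3 (0.09), Eif2ak3 (0.26) and Atf4 (0.32) farthest. These values describe arrays that share groups and mice. No background from other probe sets of the same brightness stands beside them, so they show nothing particular to the members. Of 11834 other genes, the one most like the mean profile of the members was H13, the ER protease signal peptide peptidase (r = 0.987, and 0.992 without old arthritic replicate 2). It had 11.09 and 11.90 in old arthritic mice, 10.90 and 11.20 in old non-arthritic mice, 11.42 and 11.44 in young arthritic mice, and 11.30, 11.45, 11.14 and 11.13 in young non-arthritic mice. Selenos, a selenoprotein of the degradation machinery (r = 0.973), and S100a6, a calcium-binding protein (r = 0.969), came next, and then Ndufb7, Pgam5, Zfyve21, Med29, Slc37a3, Cdk5rap3 and Rhoa down to r = 0.944.

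Plasma cell markers moved with the members, and less closely without old arthritic replicate 2. Their correlation with the mean profile of the members ran from 0.497 (Ighm) to 0.883 (Mzb1). Without that mouse it ran from 0.157 (Ighm) to 0.806 (Mzb1). Among 11834 genes Mzb1 ranked 122 in likeness to the members and Ighm 4118, with the other markers between. The mean log2 signal of 11 of 13 listed markers was 11.27 and 12 in old arthritic mice, 11.22 and 11.29 in old non-arthritic mice, 11.52 and 11.52 in young arthritic mice, and 11.24, 11.39, 11.24 and 11.26 in young non-arthritic mice. Old arthritic replicate 2 was the highest mouse in all 11 markers, as in 26 of 36 members, and among the other mice the highest marker level was in the young arthritic mice. The summed level of the list on the log2 scale was 16.40 to 16.72 in old arthritic, 16.37 to 16.39 in old non-arthritic, 16.52 to 16.54 in young arthritic and 16.35 to 16.40 in young non-arthritic mice. All 11 stood above the array median in every mouse, and Igkc and Ighg had no probe set of their own. Tnfrsf17, the receptor BCMA of plasma cells, had 8.07 and 9.33, then 7.68 and 7.69, 8.58 and 8.86, and 7.53, 7.71, 8.05 and 7.82 in the same order of groups, with a difference of 1.04 at equal age (standard error 0.25, adjusted p = 0.0606 by limma). Xbp1, a transcription factor of plasma cells and of the unfolded protein response, had 13.04 and 13.61, then 13.16 and 13.06, 13.40 and 13.40, and 13.08, 13.19, 12.97 and 13.08. It is counted here and again among the other genes of the pathway below, so the lists overlap. All 11 markers were higher at equal age, with a median of 0.23, against 68.5% of all probe sets higher (median 0.09). The threshold was passed by 0 markers. An unadjusted p under 0.05 was reached by 2 (18.2%), against 19.2% higher over all probe sets. Neutrophil markers, 8 of 8 kept, also leaned higher at equal age (7 of 8, median 0.93), with a mean of 13.24 to 13.58 in old arthritic, 12.40 to 12.58 in old non-arthritic, 13.26 to 13.84 in young arthritic and 12.79 to 13.55 in young non-arthritic mice. The part of these cells in the values of the members was not tested. The other lists served as a check of the tissue. At equal age the medians were -0.03 for B cell markers (7 of 8 listed genes kept), -0.03 for T cell markers (7 of 8), 0.06 for macrophage markers (8 of 8) and 0.19 for erythroid markers (7 of 8, all 7 higher), and of 12 pancreatic acinar genes 5 passed the filter. Within ages some of them moved with the groups. In old arthritic mice all 7 T cell markers (median -0.29) and all 5 mesothelium and fat genes (median -0.79) were lower than in old non-arthritic mice, and all 7 erythroid markers were higher (median 0.26). All 7 erythroid markers were also higher in young arthritic mice (median 0.405), and each was lowest in young non-arthritic replicate 2, with a mean of 11.47 against 12.11 to 12.47 in the rest of that group. The part of these lists in the values of the members was not tested.

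**Figure D4:**
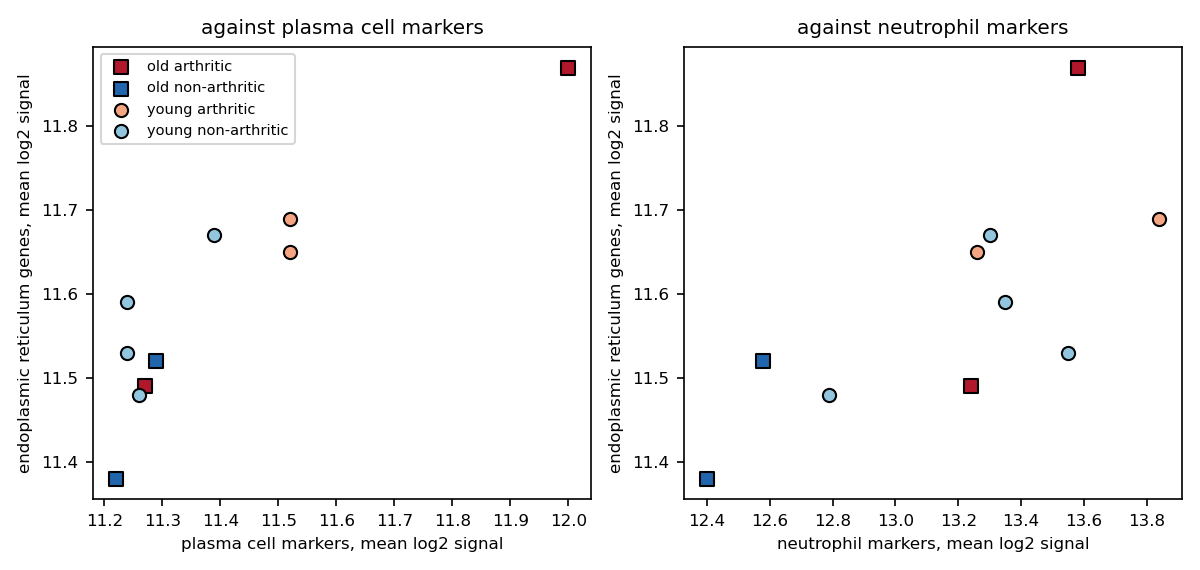
Mean log2 signal of the 36 ER genes against that of 11 plasma cell markers (left) and 8 neutrophil markers (right), 1 point per mouse, coloured by group. Old arthritic replicate 2 is at the upper right in the plasma cell panel (12 and 11.87), and old arthritic replicate 1 lies among the non-arthritic mice. The 2 young arthritic mice follow on the marker axis (11.52 and 11.52). On the axis of the ER genes they have 11.65 and 11.69, with young non-arthritic replicate 2 between them at 11.67.

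Other genes of the pathway were looked at through a list of 66, of which 64 were tested. At equal age 57 (89.1%) were higher and 7 lower, with a median of 0.21, against 68.5% of all probe sets higher (median 0.09). In the brightness range of the members 83.5% were higher (median 0.13). An unadjusted p under 0.05 was reached by 23 (35.9%) that were higher and 1 that was lower. The shares were 19.2% and 3.65% of all probe sets, and 24.6% and 0.4% in that range. The threshold was passed by 1 of the 64, and by 2.26% of all probe sets. That gene was Erlec1, a lectin that hands misfolded glycoproteins to degradation. It had 10 and 10.37 in old arthritic mice, 9.69 and 9.74 in old non-arthritic mice, 10.19 and 10.38 in young arthritic mice, and 9.72, 9.84, 9.85 and 9.82 in young non-arthritic mice. Every arthritic mouse was above every non-arthritic mouse, as in 10.4% of all probe sets. The difference of 0.54 (standard error 0.10) had an adjusted p of 0.0296 by limma. Its 2 dimmer probe sets ran the other way, with mean differences of -0.17 and -0.48, and averaging the 3 left 0.07 (adjusted p = 0.755 by limma). Of 19 alternatives the call ended in 8. By limma the adjusted p was 0.0862 after quantile normalization, 0.0767 after centring on the kept probe sets and 0.0622 with the replicate block. Leaving out single mice gave, by limma, 0.179 and 0.0963 for the old non-arthritic mice (replicates 1 and 2) and 0.083 and 0.219 for the young arthritic mice (replicates 1 and 2). Os9, a related lectin, was higher by 0.32 (standard error 0.08, adjusted p = 0.0651 by limma) and its second probe set by a mean of 0.30. Atf3, a stress-induced transcription factor, had 0.70 (standard error 0.17, adjusted p = 0.057 by limma), and its highest value, 9.14, was in a young arthritic mouse. For the difference of the arthritis effects, 0 passed the threshold, and the smallest p belonged to Edem3, a mannosidase (-0.35), Kdelr1, a receptor that returns chaperones to the ER (-0.52), and Mbtps2, a protease that activates Atf6 (-0.32), all with an adjusted p of 1 by limma.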

How the data were processed

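Spleen RNA of 10 mice was hybridized to 1 array each. The authors deposited RMA values, on a log2 scale, as the submitters' processing notes say. The sources used here name neither the RMA version nor the array statistics. Of 45101 rows 64 are controls and were left out. Probe sets above the array median in 2 or more arrays were kept (23805). Array medians lay between 6.88 and 6.96, and the number of arrays limits the precision. Limma 3.58.1 in R 4.3.3 (lmFit, eBayes) fitted group means for 4 comparisons, and arthritis plus age in months for the other 2, with Benjamini-Hochberg adjustment over all kept probe sets, tested on simulated data. No label names an array batch, so none was tested. The labels call the mice biological replicates, and p-values measure the spread between them. Genes named are those with the smallest p, the largest SD and the main chaperones and sensors. Members and lists were chosen with earlier results of these data known. Alternatives covered the filter, normalization, spread, array weights, replicate block, probe set choice and each array. Replicate numbers did not pair the mice (correlations of deviations -0.53 to 0.36). Figures were drawn with matplotlib 3.10.9.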

Additional observations from a re-analysis of the deposited data

Results flagged for a closer look

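Within the 4 young non-arthritic mice, 2 of 36 members had 1 mouse far from the other 3 by Dixon's ratio, and chance alone would give about 1.8. Eif2ak3, the sensor Perk, was 10.73 in replicate 2 against a mean of 10.62 in the other 3, and its gap to the nearest mouse was 0.897 of the whole range. Herpud1 was 11.52 in replicate 4, the 1-month mouse, against a mean of 11.86, with 0.893 for the same ratio.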

How the results depend on the processing

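Of 114 counts of called members under the alternatives, 111 stayed at 0, many of them in settings that leave out mice of other groups. Of 66 medians that a setting could move, the age slope left out, 60 moved by less than the SD of 0.129 between mice of a group and 6 by more. That SD is larger than the size of some medians, so they could reach 0 within it. These are -0.119 for age in non-arthritic mice, 0.083 for young mice and 0.106 for the difference of the effects. The count therefore does not show them to be stable. Centring on the kept probe sets took the young median to -0.007, a move within that SD. At equal age 1 member (Ssr1) was called with no filter, where 12.2% of all probe sets were called. With array weights 8 members and 20.4% of all probe sets were called. The median at equal age was 0.024 after a further quantile normalization. Without each array in turn this median was 0.108 to 0.201 and 0 members were called. Without old non-arthritic replicate 1 it was 0.108, with 26 members higher and 1 at an unadjusted p under 0.05 in place of 9. In that setting 68.4% of all probe sets were higher, and 11.4% were higher at that p. In old mice the count was 0 to 6 and the median 0.05 to 0.36, in young mice the median was -0.056 after quantile normalization, and the median of the difference of the effects was -0.052 to 0.276. Spcs1 in young mice turned to -0.044 as the mean of its probe sets. With the replicate block, which the numbers do not bear out, 0 members were called in each comparison and the median at equal age was 0.161. With crossed numbers of the old non-arthritic mice in the replicate block, 0 members were called in old mice. Centring on the kept probe sets was chosen after seeing the data, and gave 0 called members and a median of 0.086 at equal age. Averaging probe sets left 35 members to test. Of 456 alternatives for single members 445 kept direction and side of the threshold and 10 gained a call. Groups of 2 mice limit the precision.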
